A study of Rattus norvegicus with 10 samples.

Results

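Iron uptake, storage and export genes were followed by RNAseq in primary rat cells of the oligodendrocyte (OL) lineage. Members were the genes whose symbol in the authors' gene table was Tf, Tfrc, Steap3, Slc11a2, Fth1, Ftl1, Slc40a1, Cp, Ireb2 or Aco1. Of these 10 symbols, 9 were found, on 10 gene IDs of the 23487 in the count table, because Slc40a1 is carried by 2 gene IDs. The symbol Ftl1 was absent, and the row that RefSeq's gene ID ties to Ftl1 is described apart and is not counted among the members. The row with the symbol Fth1 carries another gene ID than RefSeq's for Fth1, and it is counted by its symbol. All 10 gene IDs passed the filter on low counts in each comparison.

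The cells came from cortices of P1-P3 Sprague-Dawley rat pups of no stated genetic modification, grown as mixed glia and shaken to enrich OPCs, the progenitors of OLs. There were 10 libraries, 2 for each of 5 groups, and each group received its oligonucleotides at 30 nM. OLs had been transfected 5 days earlier with a miR-145-5p mimic (miR-145), with miR-145-5p and miR-219 mimics together (miR-145+miR-219), or with a scrambled mimic (miR-ctl). OPCs had been transfected 24 h earlier with a miR-145-5p inhibitor (anti-miR-145) or a scrambled inhibitor (anti-miR-ctl). OPCs were kept with FGF2 and PDGFAA and OLs with triiodothyronine and CNTF, and the base medium of all groups held apo-transferrin, the iron-free carrier protein. A treatment tag of the miR-145 libraries also names miR-219, but their titles name miR-145 alone and were followed here. The study's methods paragraph on sequencing names lentivirus, whereas its results and the sample labels name mimics. The study's reporting summary calls every N a biological replicate and, for primary cultures, equates it with cells of a single mouse, while the cells here were from rats. The libraries are named N1 and N2 in every group, and whether libraries of the same number in different groups came from the same culture is not stated.

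Cells take up iron when transferrin (Tf) binds the transferrin receptor (Tfrc). In the endosome Steap3 reduces the iron and the transporter DMT1, encoded by Slc11a2, moves it to the cytosol. Ferritin, built of heavy (Fth1) and light (Ftl1) chains, stores it, and ferroportin (Slc40a1) exports it with the help of the ferroxidase ceruloplasmin (Cp). The iron regulatory proteins IRP1 (Aco1) and IRP2 (Ireb2) bind iron-responsive elements in the messenger RNAs of several of these genes, so much of their control acts on RNA stability and translation. OLs are known as the most iron-rich cells of the brain and as a source of transferrin.

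The small RNA sequences that define the treatments are shown because every mimic and inhibitor comparison rests on them. The labels say that the miR-145-5p mimic equals the mature miRNA. They do not give the arm of miR-219, so the miR-219a-5p sequence is shown as the usual guide arm only. Both are from RefSeq, build GRCr8, 5′ to 3′, with the seed (bases 2 to 8) in capitals. The hairpin arms taken lie on the minus strand at chr18:57370033-57370055 for miR-145-5p and chr3:33516561-33516581 for miR-219a-5p, and the 2 seeds differ. Further loci that may give the same mature sequence were not looked for.
rno-miR-145-5p: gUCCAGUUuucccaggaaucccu
rno-miR-219a-5p: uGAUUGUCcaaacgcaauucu
Sites for these seeds in the members' transcripts were not analysed here.

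Counts summed to between 33505706 and 42684206 per library. The defining OL markers rose from OPCs to OLs, with Mbp, a main protein of myelin, at 248 and 279 CPM (counts scaled to a common library total, TMM-normalised) in anti-miR-ctl OPCs and at 6218 and 13123 CPM in miR-ctl OLs. The progenitor markers Pdgfra and Cspg4 were lower in OLs than in OPCs, and so were Mki67 and Top2a, genes of dividing cells. Of 7 progenitor markers 6 were lower in miR-ctl OLs than in anti-miR-ctl OPCs. The other 1, Gpr17, was higher, at 375 and 265 CPM against 25.8 and 21.4 CPM. Astrocyte and microglia markers were also present in every library. Gfap, an astrocyte filament gene, ran from 4173 to 9676 CPM over the 6 OL libraries and from 7.80 to 51.8 CPM over the 4 OPC libraries. The microglial marker C1qa ran from 73.3 to 206 CPM over all 10 libraries. All 14 microglia markers summed to 1262 and 1186 CPM in anti-miR-ctl OPCs and to 581 and 819 CPM in miR-ctl OLs. Between these groups 7 of the 14 were higher and 7 lower in OLs. C1qa was among the higher ones, and Aif1 fell from 204 and 219 CPM to 21.3 and 30.9 CPM. In these bulk samples fewer cells of a type and less RNA per cell cannot be told apart. The plot of summed marker levels shows maturing OL, astrocyte, microglia and proliferation lists by library.

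**Figure D1:**
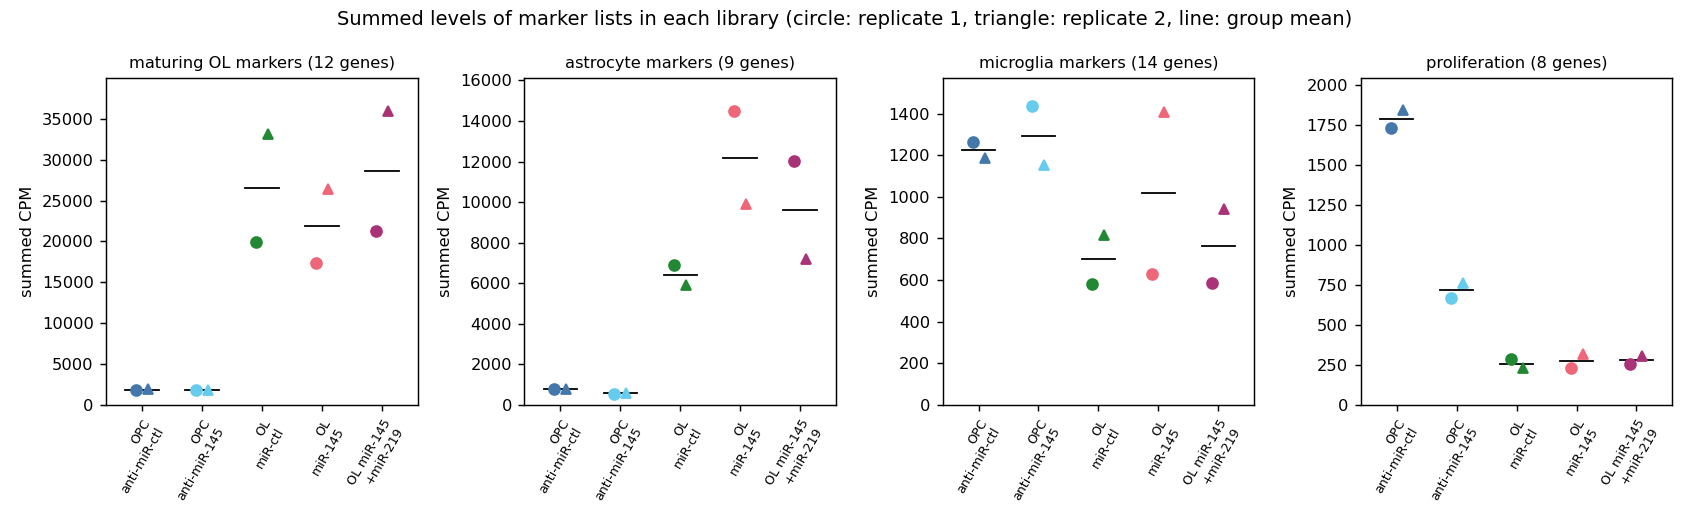
Summed TMM-normalised CPM (vertical axes, linear from 0) of 4 marker lists in each of the 10 libraries, with circles for replicate 1, triangles for replicate 2 and a line at the mean of each group of 2. The maturing OL sum was between 1758 and 1896 CPM in the OPC libraries and between 17326 and 35989 CPM in the OL libraries. The astrocyte sum had its highest group mean in the miR-145 OLs, at 14489 and 9885 CPM. These overlapped the miR-145+miR-219 OLs at 12022 and 7171 CPM.

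Members differed in how far their group means ranged over the 5 groups. The highest group mean over the lowest was 7.86 for the second, barely expressed gene ID of Slc40a1 and 2.38 for the sum of its IDs. It was 7.65 for Cp, 6.35 for Tf, 3.35 for Steap3, 2.36 for both Tfrc and Fth1, and 1.89 for Slc11a2. The ratio was 1.18 for Ireb2 and 1.14 for Aco1, the iron sensors. The plot of levels by library shows each of them.

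**Figure D2:**
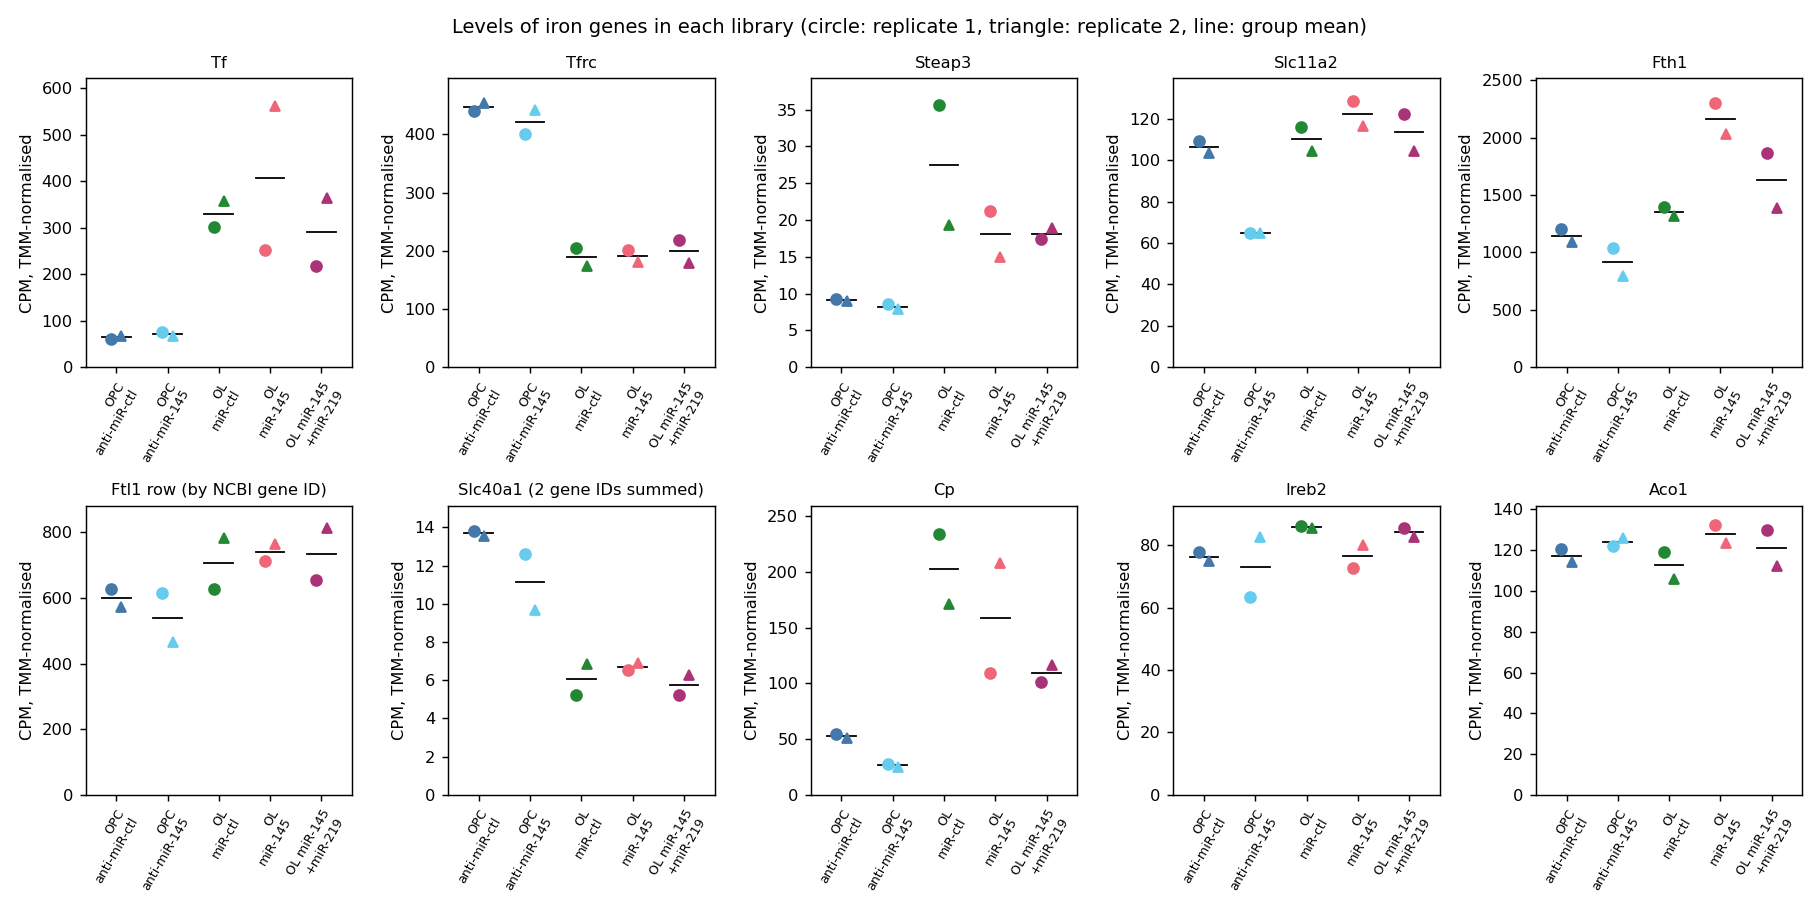
TMM-normalised CPM (vertical axes, linear from 0) of 9 iron genes and the row tied to Ftl1 in each library, with circles for replicate 1, triangles for replicate 2 and a line at each group mean (n = 2). Tf and Cp stand high and Tfrc low in the 6 OL libraries, Slc11a2 and Cp are lowest in the 2 anti-miR-145 libraries, and Fth1 is highest in the 2 miR-145 libraries.

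The first comparison asked how the iron genes differ between the control cells of both stages, miR-ctl OLs and anti-miR-ctl OPCs. Transferrin, ceruloplasmin and Steap3 rose in OLs, and the transferrin receptor and the first ferroportin gene ID fell. The ferritin heavy chain, Slc11a2 and both iron regulatory proteins did not pass the test. By edgeR's quasi-likelihood test at a Benjamini-Hochberg adjusted p under 0.05, 5 of the 10 gene IDs were called, 3 higher and 2 lower, where 57.5% of all 15721 genes tested were called, 28.8% higher and 28.7% lower. DESeq2 called 5 members and 53.4% of genes. The members' share was thus no larger than that of all genes. Stage, medium, time after transfection and the kind of control oligonucleotide all differ between these groups and cannot be told apart.

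Tf, the iron carrier, was at 303 and 358 CPM in miR-ctl OLs and at 61.3 and 66.8 CPM in anti-miR-ctl OPCs. The groups lay far apart, and each OL library was above both OPC libraries. Its log2 fold change was 2.35 (SE 0.12, edgeR adjusted p of 0.000112), a 5.11-fold rise. It stayed between 2.24 and 2.48 when any library was left out. Tfrc, which takes up the loaded carrier, went the other way. Its level was 205 and 173 CPM in miR-ctl OLs against 439 and 454 CPM in anti-miR-ctl OPCs, and the groups did not overlap. The log2 fold change was -1.25 (SE 0.11, edgeR adjusted p of 0.000534), with a range of -1.37 to -1.13 when a library was left out. All 8 proliferation genes were called lower in OLs. Their list summed to 284 and 230 CPM against 1730 and 1844 CPM, and its part in the Tfrc difference was not tested.

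Cp, the ferroxidase that helps load exported iron onto transferrin, was at 234 and 171 CPM in miR-ctl OLs and at 54.8 and 50.8 CPM in anti-miR-ctl OPCs. Both OL libraries were above both OPC libraries, and the log2 fold change was 1.92 (SE 0.17, edgeR adjusted p of 0.000556). Astrocytes also express Cp, and 8 of the 9 astrocyte markers were called higher in OLs, with the list summing to 6909 and 5899 CPM in OLs and 798 and 776 CPM in OPCs. The part of the astrocyte markers in the Cp difference was not tested.

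Steap3, the endosomal ferrireductase, was at 35.6 and 19.4 CPM in miR-ctl OLs and at 9.23 and 8.92 CPM in anti-miR-ctl OPCs. The OL libraries were both higher but spread widely between themselves. The log2 fold change was 1.59 (SE 0.30, edgeR adjusted p of 0.00772). Without either OPC library in turn the adjusted p was 0.0581 and 0.0622, so that call rested on having both.

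Slc40a1, the only known cellular iron exporter, was split by the counting over 2 gene IDs, and 90% of the values of each ID were not whole counts, so its single rows are uncertain. The first, ENSRNOG00000003872, stood at 4.29 and 6.87 CPM in miR-ctl OLs and 9.53 and 10.5 CPM in anti-miR-ctl OPCs, a log2 fold change of -0.86 (SE 0.25, edgeR adjusted p of 0.032). Its adjusted p was 0.113 and 0.158 without OPC replicate 1 and 2. The second, ENSRNOG00000049995, had 0 counts in miR-ctl OL replicate 2 and was not called (edgeR adjusted p of 0.0597). Summed over both IDs, the level was 5.22 and 6.87 CPM in OLs against 13.8 and 13.5 CPM in OPCs, and the groups did not overlap. The log2 fold change of the sum was -1.19 (SE 0.17, edgeR adjusted p of 0.00312), a 2.29-fold fall.

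Fth1, the iron-storing heavy chain with ferroxidase activity, was at 1393 and 1313 CPM in miR-ctl OLs and 1201 and 1091 CPM in anti-miR-ctl OPCs. The OL libraries were slightly higher and did not overlap the OPC libraries, but the log2 fold change of 0.23 (SE 0.09, edgeR adjusted p of 0.0857) was not called. None of the 10 values of Fth1 was a whole count, and RefSeq lists 6 other loci named for it, so its reads are shared with near-identical copies. The row's NCBI gene ID, 679217, is not the 25319 that RefSeq gives Fth1, so the row rests on its symbol alone. The row tied to Ftl1, ENSRNOG00000020843, was at 628 and 784 CPM in OLs and at 627 and 572 CPM in OPCs, with OL replicate 1 almost at the level of OPC replicate 1. Its log2 fold change was 0.22 (SE 0.13, edgeR adjusted p of 0.203). The authors' table gives it the symbol LOC100360087, which a second gene ID also carries, and RefSeq lists 21 other loci named for Ftl1.

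The remaining members stayed near level between stages. Slc11a2, which lets iron out of the endosome, was at 116 and 104 CPM in miR-ctl OLs and 109 and 103 CPM in anti-miR-ctl OPCs, with a log2 fold change of 0.04 (SE 0.09). Ireb2 was at 86.2 and 85.7 CPM against 77.7 and 75.1 CPM, a small gap without overlap (log2 fold change 0.16, SE 0.07, edgeR adjusted p of 0.115). Aco1 was at 119 and 106 CPM against 120 and 114 CPM, with overlapping groups and a log2 fold change of -0.07 (SE 0.09). Over all 10 gene IDs, 8 had groups that did not overlap, where 81.8% of all genes tested did.

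Promoter sequence is shown for the 3 members that moved most between stages by adjusted p, Tf and Cp, which rose, and Tfrc, which fell. Each stretch is the 250 bases before the RefSeq start in build GRCr8, written 5′ to 3′ on the gene's strand, with motif matches in capitals. The motifs searched on both strands began with the hypoxia response core, ACGTG. The antioxidant response core was searched as TGACNNNGC. The core bound by Sox factors was searched as ACAAT. The other two were the TATA box, searched as TATAAA, and the GC box, whose letters are GGGCGG. Promoters were given for 8 of the 10 member symbols.
Tf, chr8:112695377-112695626, minus strand: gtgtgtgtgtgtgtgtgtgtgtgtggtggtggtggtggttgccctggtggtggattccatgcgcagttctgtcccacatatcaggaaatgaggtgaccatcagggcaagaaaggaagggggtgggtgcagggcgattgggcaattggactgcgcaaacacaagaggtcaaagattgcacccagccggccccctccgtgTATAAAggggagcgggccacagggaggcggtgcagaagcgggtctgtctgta
Cp, chr2:104368420-104368669, plus strand: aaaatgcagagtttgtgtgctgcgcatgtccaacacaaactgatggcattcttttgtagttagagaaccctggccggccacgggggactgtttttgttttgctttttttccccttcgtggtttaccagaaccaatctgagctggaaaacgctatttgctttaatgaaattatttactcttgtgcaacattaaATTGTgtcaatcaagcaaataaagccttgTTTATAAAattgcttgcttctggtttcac
Tfrc, chr11:81690319-81690568, minus strand: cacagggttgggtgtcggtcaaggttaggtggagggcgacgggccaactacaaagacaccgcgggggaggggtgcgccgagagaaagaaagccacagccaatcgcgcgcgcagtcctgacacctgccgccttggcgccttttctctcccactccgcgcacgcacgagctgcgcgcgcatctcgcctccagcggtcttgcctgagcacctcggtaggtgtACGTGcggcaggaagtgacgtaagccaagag
The Tf stretch held TATAAA 52 bases before the start. The Cp stretch held TATAAA on both strands, overlapping, 29 and 27 bases before the start, and an ACAAT on the opposite strand at 58 bases. The Tfrc stretch held 1 of these motifs, ACGTG at 31 bases. Of 33469 promoters of the same length, 12.9% held TATAAA, 30.0% held ACAAT and 16.6% held ACGTG. These matches describe the letters only.

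Other iron genes were taken from 5 lists by role, 43 symbols of which 35 were found on 36 gene IDs. In the same stage comparison 24 of the 36 were called, 13 higher and 11 lower, where 57.5% of all genes tested were called, 28.8% higher and 28.7% lower. Their median log2 fold change was 0.11 against 0.01 over all genes. Heme handling had 5 of 9 called higher and 1 lower. Flvcr2, a heme or choline transporter of the FLVCR family, rose from 1.32 and 1.20 CPM in OPCs to 18.6 and 13.4 CPM in OLs (log2 fold change 3.65, SE 0.23, edgeR adjusted p of 0.000196). Hmox1, the inducible heme oxygenase that frees iron from heme, fell from 428 and 386 CPM to 127 and 136 CPM (log2 fold change -1.64, SE 0.09). Microglia marker sums, given above, were also lower in OLs, and their part in the falls of Hmox1 and Slc40a1 was not tested.

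Iron entry and ferrireduction had 3 of 10 called higher and 3 lower, where 28.8% of all genes tested were called higher and 28.7% lower. The same shares of all genes apply to the counts of the other lists below. Tfr2, the second transferrin receptor, rose by 2.25 on the log2 scale (SE 0.43), at levels of at most 1.33 CPM. The ferrireductases Cybrd1 and Steap4 fell, by 1.92 (SE 0.32) and 1.73 (SE 0.51) on the log2 scale, Steap4 at levels of at most 2.52 CPM. Among 4 export partners and regulators, the membrane ferroxidase hephaestin (Heph) fell from 11.5 and 11.2 CPM to 0.954 and 1.62 CPM (log2 fold change -3.17, SE 0.27). The hephaestin-like Hephl1 rose by 1.36 (SE 0.31), at levels of at most 1.88 CPM. The 9 mitochondrial and iron-sulfur rows had 3 higher and 4 lower, with the mitochondrial iron importers Slc25a37 and Slc25a28 lower at -0.53 and -0.62. Of the 4 genes of ferritin loading, turnover and iron sensing, 2 were lower, Ncoa4, the receptor for ferritin breakdown, at -0.44 and Fbxl5, the iron-sensing ubiquitin ligase subunit, at -0.38, and Herc2 was higher at 0.37. Fewer of the other iron genes were called without either OPC library, but the share of all genes called in those fits was not counted.

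The second comparison asked what changed in OPCs 24 h after the miR-145-5p inhibitor. Slc11a2 and Cp fell, and no member rose. By edgeR's quasi-likelihood test 2 of 10 gene IDs were called, both lower, where 28.1% of the 15496 genes tested were called and 16% were called lower. DESeq2 called 2 members and 26.5% of genes. The members' share was again no larger than that of all genes.

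Slc11a2 was at 65.0 and 64.6 CPM with anti-miR-145 and at 109 and 103 CPM with anti-miR-ctl. The 2 inhibitor libraries were almost equal and both far below the controls, and they were the lowest of the 10 libraries of the series. With a log2 fold change of -0.73 (SE 0.08, edgeR adjusted p of 0.000832), the fall was 1.66-fold, and it ranged from -0.80 to -0.71 when a library was left out. Cp was at 27.5 and 25.4 CPM with anti-miR-145 and at 54.8 and 50.8 CPM with anti-miR-ctl, again with no overlap. Its log2 fold change was -1.01 (SE 0.10, edgeR adjusted p of 0.00043), a 2.02-fold fall, with a range of -1.10 to -0.94.

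For the other members the values were close or the libraries of 1 group spread. Fth1 was at 1035 and 796 CPM against 1201 and 1091 CPM, lower in both inhibitor libraries, with a log2 fold change of -0.34 (SE 0.14, edgeR adjusted p of 0.116). Without anti-miR-145 replicate 1 the Fth1 value was -0.55 with an adjusted p of 0.000288, so its size depended on the other replicate. The Ftl1 row was at 615 and 466 CPM against 627 and 572 CPM, also lowest in anti-miR-145 replicate 2 (log2 fold change -0.16, SE 0.14). The summed Slc40a1 IDs were at 12.6 and 9.66 CPM against 13.8 and 13.5 CPM (log2 fold change -0.31, SE 0.15, edgeR adjusted p of 0.165).

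Tf was at 74.6 and 67.8 CPM with the inhibitor and 61.3 and 66.8 CPM with its control, higher by a small margin without overlap (log2 fold change 0.14, SE 0.10). Tfrc was at 401 and 441 CPM against 439 and 454 CPM, and the log2 fold change was -0.10 (SE 0.08). Steap3 was at 8.60 and 7.84 CPM against 9.23 and 8.92 CPM (log2 fold change -0.16, SE 0.12). None of these 3 differences passed the test. Ireb2 spread from 63.4 to 82.7 CPM between the 2 inhibitor libraries around control values of 77.7 and 75.1 CPM. Aco1 was at 122 and 126 CPM against 120 and 114 CPM. Of the 10 gene IDs 7 had groups that did not overlap, where 68.6% of all genes did.

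Of the other iron genes 15 of 36 were called in the inhibitor comparison, 2 higher and 13 lower, where 28.1% of all genes tested were called, 12.1% higher and 16% lower. Their median log2 fold change was -0.12 against 0.005 over all genes. Hmox1 fell from 428 and 386 CPM to 150 and 100 CPM (log2 fold change -1.71, SE 0.19, edgeR adjusted p of 0.000804). Steap4 fell by 1.80 on the log2 scale (SE 0.28), at levels of at most 2.52 CPM. Hpx, hemopexin, and Bmp6, a regulator of hepcidin, were called lower at -2.62 (SE 0.73) and -4.85 (SE 0.84), but each was under 0.6 CPM in every OPC library. Hephl1 rose by 1.16 (SE 0.28), at levels of at most 1.47 CPM, and Glrx5, a glutaredoxin of iron-sulfur cluster assembly, by 0.48 (SE 0.11). Ncoa4 and Fbxl5 fell by 0.42 and 0.54, Slc25a37 and Slc25a28 by 0.67 and 0.55, and Heph by 0.74. Fewer rows were called without either anti-miR-ctl library, and the share of all genes called in those fits was not counted. All 8 proliferation genes were called lower with the inhibitor, the list summing to 671 and 760 CPM against 1730 and 1844 CPM. Of 14 microglia markers 9 were called higher and 5 lower, with sums of 1437 and 1151 CPM against 1262 and 1186 CPM. Of 9 astrocyte markers 2 were called higher and 4 lower, with sums of 554 and 606 CPM against 798 and 776 CPM. Of 4 endothelial markers 1 was called lower, with sums of 2.26 and 2.21 CPM against 11.66 and 11.03 CPM. Flt1 made up most of the control sums, at 1.01 and 0.759 CPM against 10.6 and 10.0 CPM, and 2 of the 4 had a positive log2 fold change. The part of these lists in the fall of Slc11a2, Cp and Hmox1 was not tested.

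The plot of the named other iron genes by role shows these values for 3 comparisons.

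**Figure D3:**
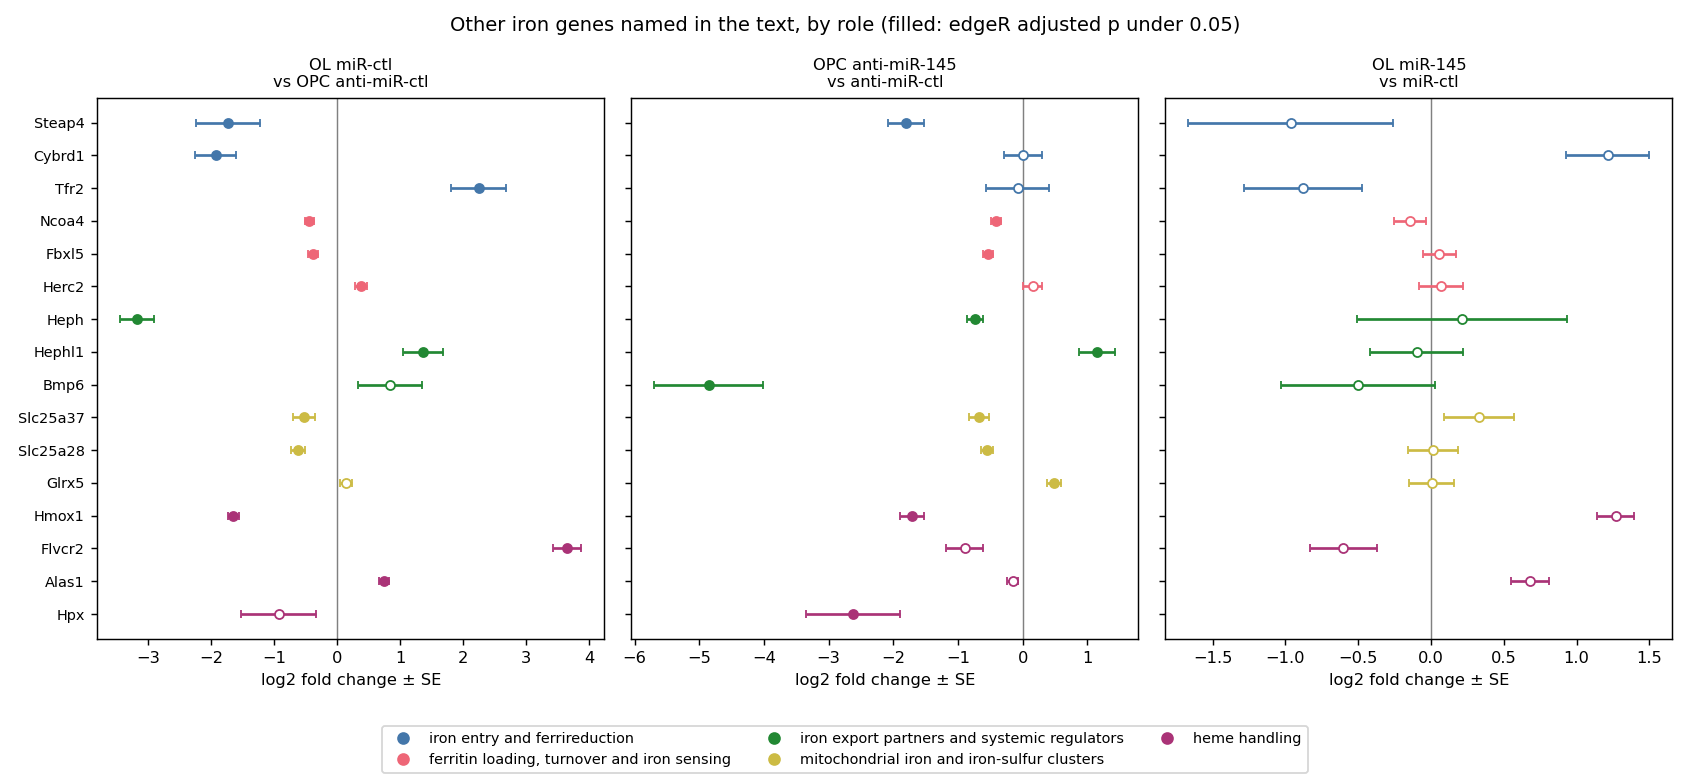
Log2 fold change ± SE (horizontal axes, whose scales differ between panels) of the 16 other iron genes named in the text (15 in the OL miR-145 panel), coloured by role, in 3 comparisons of 2 against 2 libraries, with filled points for an edgeR adjusted p under 0.05. The stage panel has 13 filled points, the OPC inhibitor panel 11, of which 9 lie below 0, and the OL miR-145 panel none, with Hmox1 at 1.27.

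The third comparison asked what the miR-145-5p mimic changed in OLs on day 5 after transfection. No iron gene passed the test, as held for every gene of the table, with 0% of the 15461 genes tested called by edgeR's quasi-likelihood test. At an unadjusted p under 0.05 there was 1 member, Fth1, where 13.4% of all genes had such a p. DESeq2 called 1 member, Fth1, and 4.2% of all genes. With the replicate number as a block edgeR called 4 members and 14.7% of all genes. Those 4 were Fth1, higher with an adjusted p of 4.8e-06, the second Slc40a1 ID, higher with 0.00082, and Steap3 and Cp, lower with 0.0045 and 0.034. Whether the numbers pair the libraries is not stated, and deviations of same-numbered libraries correlated at 0.425 in this comparison. Groups did not overlap for 5 of 10 gene IDs, 4 higher and 1 lower, where 47.3% of all genes did not.

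Fth1 was at 2298 and 2030 CPM in miR-145 OLs and at 1393 and 1313 CPM in miR-ctl OLs. The miR-145 libraries were the highest of the series and far from both controls. The log2 fold change was 0.68 (SE 0.14), a 1.61-fold difference, with an unadjusted p of 0.00428 and an edgeR adjusted p of 0.175. The DESeq2 adjusted p was 0.000422, and over all alternatives the adjusted p ran from 4.8e-06 to 0.569. The value ranged from 0.59 to 0.77 when a library was left out. The row tied to the other ferritin chain, Ftl1, did not show such a gap, at 714 and 764 CPM against 628 and 784 CPM (log2 fold change 0.07, SE 0.16). The other gene ID of its symbol was at 1008 and 1101 CPM against 888 and 1083 CPM. Whether the 2 ferritin rows differ in response was not tested. As said above, the Fth1 row is tied to Fth1 by its symbol and not by RefSeq's gene ID.

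Tf spread from 252 to 561 CPM between the miR-145 libraries, below and above the control values of 303 and 358 CPM. Its log2 fold change was 0.31 (SE 0.37), and it ran from -0.39 without miR-145 replicate 2 to 0.77 without miR-145 replicate 1. In every OL group Tf was higher in replicate 2 than in replicate 1, and so was the sum of the 12 maturing OL markers, which was 17326 and 26408 CPM in miR-145 OLs and 19917 and 33136 CPM in miR-ctl OLs. The part of OL maturity in the spread of Tf was not tested. Cp was at 110 and 208 CPM against 234 and 171 CPM, overlapping the controls (log2 fold change -0.34, SE 0.33). Steap3 was at 21.3 and 15.0 CPM against 35.6 and 19.4 CPM, and the log2 fold change of -0.60 (SE 0.33) was -0.09 without miR-ctl replicate 1.

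Tfrc was at 201 and 180 CPM against 205 and 173 CPM, and its log2 fold change was 0.02 (SE 0.13), the smallest among the members. Slc11a2 was at 128 and 117 CPM against 116 and 104 CPM (log2 fold change 0.16, SE 0.12). The summed Slc40a1 IDs were at 6.53 and 6.90 CPM against 5.22 and 6.87 CPM (log2 fold change 0.16, SE 0.23). Ireb2 was lower in both miR-145 libraries, at 72.9 and 80.1 CPM against 86.2 and 85.7 CPM, and Aco1 was higher in both, at 132 and 124 CPM against 119 and 106 CPM. Their log2 fold changes of -0.16 (SE 0.11) and 0.19 (SE 0.12) did not pass the test.

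Among the other iron genes 0 of the 35 tested were called by edgeR, 7 had an unadjusted p under 0.05 and DESeq2 called 2, Hmox1 and Alas1. Those 2 also had the smallest p. Hmox1 was at 339 and 292 CPM against 127 and 136 CPM (log2 fold change 1.27, SE 0.13, edgeR adjusted p of 0.158), and Alas1, the first enzyme of heme synthesis, at 132 and 110 CPM against 75.3 and 76.2 CPM (log2 fold change 0.68, SE 0.13, edgeR adjusted p of 0.164). Neither gene's groups overlapped. Markers of other cells differed as well, though not all in the same direction. All 9 astrocyte markers had both miR-145 libraries above both controls, the list summing to 14489 and 9885 CPM against 6909 and 5899 CPM. All 14 microglia markers had a higher mean, with sums of 631 and 1406 CPM against 581 and 819 CPM, and 5 of them had no overlap. Of all genes tested, 22.9% had both miR-145 libraries above both controls and 24.4% had both below. All 5 fibroblast and mural markers tested were also above both controls, with sums of 50.5 and 85.3 CPM against 30.7 and 21.0 CPM. The 4 endothelial markers summed to 10.1 and 6.52 CPM against 21.1 and 15.3 CPM, with 2 above and 2 below both controls, and DESeq2 called 1 lower. Kdr made up most of these sums, at 9.06 and 5.23 CPM against 20.1 and 14.3 CPM. The part of these lists in the levels of Fth1, Hmox1 and Alas1 was not tested.

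The fourth comparison asked the same of miR-145 and miR-219 mimics given together, against the same miR-ctl libraries, so it is not independent of the third. By edgeR's quasi-likelihood test 0 members were called, where 0% of the 15436 genes were called. There was 1 member at an unadjusted p under 0.05, Cp, where 6.19% of genes had such a p, and DESeq2 called 1 member, Cp, and 0.687% of genes. Cp was at 102 and 117 CPM against 234 and 171 CPM, with both treated libraries below both controls. The log2 fold change was -0.89 (SE 0.19), with an unadjusted p of 0.00514 and an edgeR adjusted p of 0.8. The DESeq2 adjusted p was 0.0167, and over the alternatives it ran from there to 0.998, with a log2 fold change of -0.64 without miR-ctl replicate 1.

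Fth1 was at 1869 and 1384 CPM with both mimics, so replicate 2 lay among the controls, and the log2 fold change was 0.27 (SE 0.19). Tf was at 219 and 365 CPM, on both sides of the controls (log2 fold change -0.17, SE 0.26). Steap3 was at 17.4 and 18.9 CPM, below both controls, with a log2 fold change of -0.60 (SE 0.30) that was -0.084 without miR-ctl replicate 1 and -0.97 without miR-ctl replicate 2. Tfrc was at 219 and 180 CPM, Slc11a2 at 123 and 105 CPM, Ireb2 at 85.7 and 82.6 CPM and Aco1 at 130 and 112 CPM, and their log2 fold changes lay between -0.02 and 0.11. The Ftl1 row was at 655 and 813 CPM and the summed Slc40a1 at 5.21 and 6.29 CPM, each overlapping the controls. Groups did not overlap for 3 of the 10 gene IDs, all lower, where 36.8% of genes did not. Of 36 other iron genes 0 were called by edgeR or DESeq2 and 5 had an unadjusted p under 0.05. The smallest p were those of Tfr2 at -1.97 (SE 0.47) and Cybrd1 at 0.95 (SE 0.28), neither called.

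The fifth comparison set the 2 mimic treatments against each other, to ask what adding miR-219 changed. By edgeR's quasi-likelihood test 0 members were called, as were 0% of the 15501 genes. Of the members 0 had an unadjusted p under 0.05, where 1.47% of all genes did, and DESeq2 called 0 members and 0.0581% of genes. Fth1 was lower with both mimics than with miR-145 alone in both libraries, at 1869 and 1384 CPM against 2298 and 2030 CPM, with a log2 fold change of -0.42 (SE 0.19, unadjusted edgeR p of 0.084). With the replicate number as a block it was the 1 member called, with an edgeR adjusted p of 0.030, where 1.19% of all genes were called. All 9 astrocyte and all 14 microglia markers also had negative log2 fold changes here, with astrocyte sums of 12022 and 7171 CPM against 14489 and 9885 CPM and microglia sums of 588 and 944 CPM against 631 and 1406 CPM. All 12 maturing OL markers had positive ones, with sums of 21236 and 35989 CPM against 17326 and 26408 CPM. None of these markers was called by edgeR or DESeq2, and their part in the Fth1 difference was not tested. Cp and Tf had log2 fold changes of -0.56 (SE 0.32) and -0.49 (SE 0.46), and their groups overlapped. The other members lay between -0.15 and 0.13 on the log2 scale, except the second Slc40a1 ID at -0.57 (SE 0.49). For 3 of the 10 gene IDs groups did not overlap, where 24.8% of genes did not. Of the other iron genes 0 of 36 were called by either tool, and 2 had an unadjusted p under 0.05, Hmox1 at -0.75 (SE 0.24) and Hpx at 2.89 (SE 0.68), the latter under 0.3 CPM in all 4 libraries. The plot of fold changes sets the 5 comparisons side by side.

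**Figure D4:**
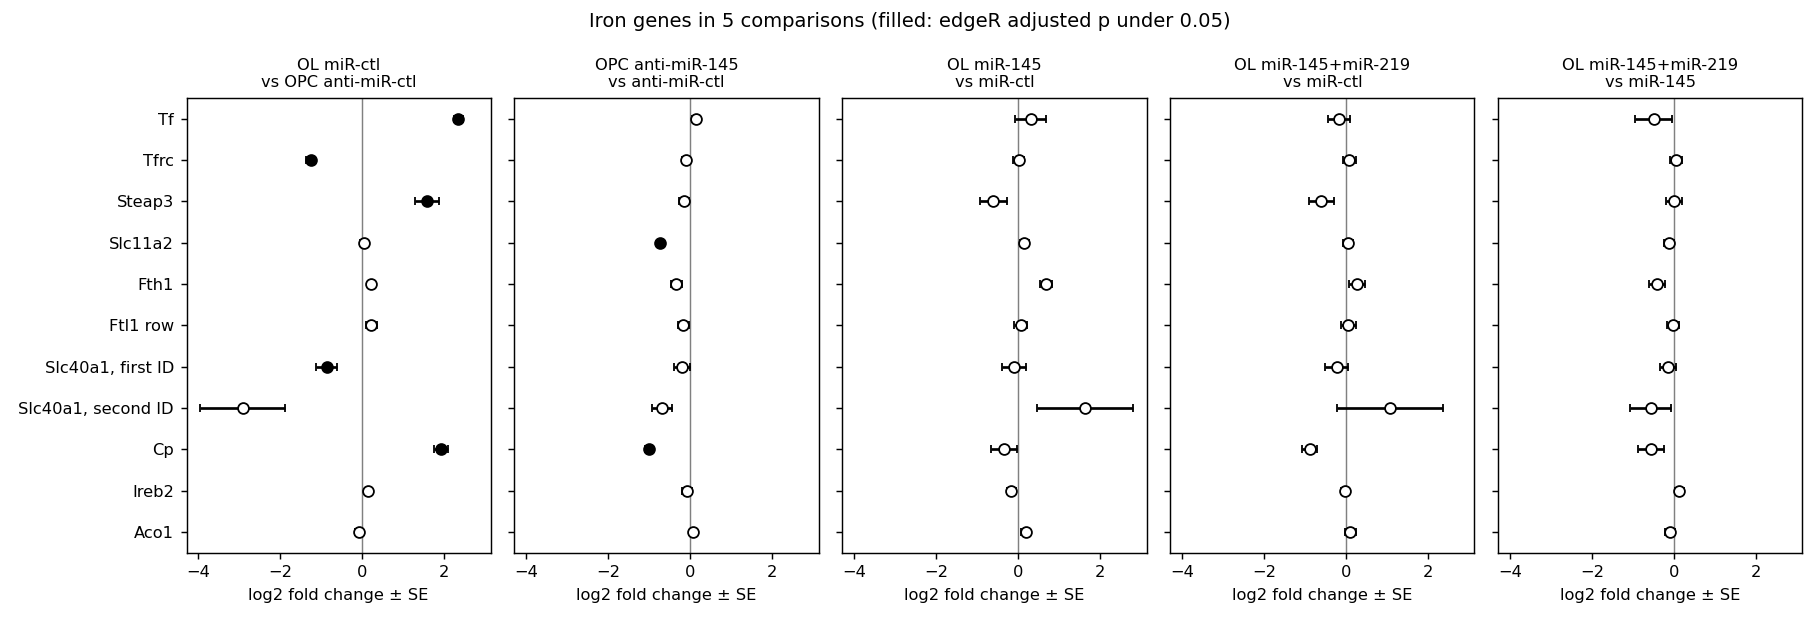
Log2 fold change ± SE (horizontal axes, shared scale) of the iron genes in 5 comparisons of 2 against 2 libraries, with filled points for an edgeR adjusted p under 0.05 and both Slc40a1 gene IDs shown. Filled points appear in the stage comparison, with Tf at 2.35 and Tfrc at -1.25, and for Slc11a2 and Cp in OPCs given the inhibitor, and in none of the 3 mimic comparisons.

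The OPC inhibitor and OL mimic comparisons share no library, but they differ in stage, medium and time as well as in the direction of the treatment, and no test between them was made. Log2 fold changes with the inhibitor and with the miR-145 mimic had opposite signs for Fth1 (-0.34 and 0.68), Slc11a2 (-0.73 and 0.16), Tfrc (-0.10 and 0.02) and the second Slc40a1 ID (-0.67 and 1.63). The signs were the same for Cp (-1.01 and -0.34), Tf (0.14 and 0.31), Steap3 (-0.16 and -0.60) and Ireb2 (-0.08 and -0.16). The same held for Aco1 (0.07 and 0.19) and the first Slc40a1 ID (-0.20 and -0.09). Of all these values only those of Slc11a2 and Cp with the inhibitor were called.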

How the data were processed

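RNA of 10 libraries was sequenced as stranded mRNA libraries. The authors assigned reads to GENCODE Rnor6.0 transcripts with Salmon 0.12.0, and used tximport to sum them. What the authors deposited are unnormalised estimated counts for each gene. The authors' DESeq2 table holds a mean signal, a log2 fold change, its standard error, a statistic (a score) and p-values, none of which were used here. Only its symbols and NCBI gene IDs were taken. Salmon splits reads between near-identical loci, so values of such genes need not be whole.

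Counts were rounded. edgeR 4.0.16 in R 4.3.3 (TMM, quasi-likelihood test) was run on the 4 libraries of each comparison, keeping genes that reached 5 counts in 2 or more of them, with Benjamini-Hochberg adjustment over all genes tested and calls under 0.05. The SE is the log2 fold change over the square root of F. CPM used TMM factors over all 10 libraries. Totals of 33505706 to 42684206 limit only low genes, and 2 libraries per group limit every comparison.

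The text names all members and, of the other iron genes, the 3 called higher and 3 called lower of largest change per comparison, or else the 2 of smallest p. Hmox1, Ncoa4, Fbxl5, Herc2, Heph, Slc25a37 and Slc25a28 were named outside this rule in places, after their values were seen. Some genes are not reported here. Members and lists were chosen with earlier results of these data known. Alternatives were DESeq2 1.42.0, its size factors, no filter, at least 10 counts, 1 fit of all groups, a replicate block, summed Slc40a1 IDs and leaving out each library. Functions were tested on simulated data.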

Additional observations from a re-analysis of the deposited data

How the results depend on the processing

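All members had at least 5 counts in 2 libraries of each comparison, but the second Slc40a1 ID was low, with 0 counts in miR-ctl OL replicate 2. Its log2 fold change in the miR-145 comparison ran from 0.67 to 8.73 when a library was left out. Having 2 libraries per group limited every comparison. Leaving out 1 library leaves its group with a single library that is assumed to vary like the other group. Calls of 0 in the 3 OL mimic comparisons say nothing about stability.

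DESeq2 called 1 member (Fth1) and 2 other iron genes in the miR-145 comparison, and 1 member (Cp) in the miR-145+miR-219 comparison. With a replicate block edgeR called 4 members (Fth1, Steap3, Cp and the second Slc40a1 ID) and 7 other iron genes in the miR-145 comparison, where 14.7% of all genes were called, and 1 member (Fth1) and 1 other iron gene (Hmox1) between the mimic groups, where 1.19% were. The sources name the libraries N1 and N2 but do not state that the same number in different groups marks a common culture. Deviations of same-numbered libraries correlated at 0.425, 0.489 and 0.657 in the OL comparisons, 0.0743 between stages and -0.171 in OPCs. A block with the numbers crossed in OPCs, added after the data were seen, called 4 members and 5536 of 15496 genes.

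With 1 library left out, 2 to 5 members were called in OPCs (4 and 5 without anti-miR-145 replicate 1 and 2) and 3 to 7 between stages (3 without either OPC library). Other iron genes called ran from 7 to 19 in OPCs and from 9 to 29 between stages. In the mimic comparisons the counts stayed at 0. The share of all genes called was not counted in any fit with a library left out. Without that share, these counts cannot show whether calls of iron genes changed more or less than those of all genes. Log2 fold changes whose sign turned when a library was left out were, in the miR-145 comparison, Tfrc (-0.11 to 0.15), the first Slc40a1 ID (-0.39 to 0.28), Cp (-0.88 to 0.051), Tf (-0.39 to 0.77) and the Ftl1 row (-0.078 to 0.23). In the miR-145+miR-219 comparison they were Tfrc (-0.068 to 0.21), the first Slc40a1 ID (-0.52 to 0.14), Slc11a2 (-0.068 to 0.15), Tf (-0.59 to 0.15) and the Ftl1 row (-0.11 to 0.23). Between the mimic groups they were Tfrc (-0.091 to 0.19), Aco1 (-0.19 to 0.017), Tf (-0.96 to 0.21), Steap3 (-0.23 to 0.26) and the Ftl1 row (-0.18 to 0.13). In OPCs they were the first Slc40a1 ID (-0.54 to 0.085), Ireb2 (-0.27 to 0.087) and the Ftl1 row (-0.39 to 0.041), and between stages Aco1 (-0.14 to 0.018) and Slc11a2 (-0.026 to 0.12). None of these was called in the full comparison. The first Slc40a1 ID in the miR-145 comparison became 0.16 with its IDs summed. Steap3 between the mimic groups became 0.0020 with all groups in 1 fit and 0.0098 with the replicate block.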

Other observations

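For each member the genes of most similar pattern were sought by Pearson correlation of log2(CPM + 1) over the 10 libraries, among 9579 named genes with a mean of at least 10 CPM. The 10 libraries come from 2 stages that differ in many genes, and these values are given as a description. Hcn2 was among the genes most like Tf (r 0.982). Tfrc was most like Disp2 (r 0.997) and Adcy3 (r 0.996). Cp was most like Mcm9 (r 0.977) and Nt5e (r 0.975), and Steap3 most like Sema6b (r 0.989) and Gpat4 (r 0.984). Slc11a2, which separated the anti-miR-145 libraries from the rest, was most like Id1 (r 0.988) and Negr1 (r 0.986). Fth1 was most like Ctbs (r 0.984) and Rab13 (r 0.983), and the row tied to Ftl1 was most like the other gene ID of its symbol (r 0.976) and Avpi1 (r 0.969). Ireb2 was most like Ubr3 (r 0.972) and Fam208a (r 0.957), and Aco1 most like Kcna2 (r 0.966) and Akt2 (r 0.933). The first Slc40a1 ID was most like Eif1ad (r 0.977) and Kat14 (r 0.963), and the second like LOC103694869 (r 0.987) and Plxnb2 (r 0.929).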
